A study of Homo sapiens with 8 samples.

Results

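The 38 genes described here belong to the amino acid response led by the transcription factor ATF4, and 11 of them encode cytosolic tRNA synthetases. They were taken as a list of known ATF4 targets and partners, matched by gene symbol, and all 38 had a probe set among the 22458 named genes on the array. The study measured total RNA of Caco-2 clone TC7, a human colon cancer cell line of epithelial type, after overnight transfection of subconfluent cells. One group received 200 ng of an expression plasmid for CRTC1, a coactivator of the transcription factor CREB, and the other the matching empty vector pBS. Each group had 4 arrays. All 8 samples came from cells grown in high-glucose DMEM with serum and antibiotics. The response was thus read in fed cells of a single clone under transient transfection, with the share of cells that took up plasmid not known here.

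When a cell lacks an amino acid or its endoplasmic reticulum is overloaded with unfolded protein, kinases phosphorylate the translation factor eIF2. General protein synthesis then slows, while the mRNA of ATF4 is translated more. ATF4 pairs with C/EBP-family partners on C/EBP-ATF response elements and raises genes that make amino acids, bring them into the cell and charge them onto tRNAs. Since the control of ATF4 lies largely in its translation, the level of ATF4 mRNA need not follow the level of its protein.

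The element most of these genes are known for could be looked for in their promoters. RefSeq start-site windows of GRCh38.p14, 250 bases before to 50 after the start, were at hand for 31 of the 38 genes, and PSPH, SHMT2, ALDH1L2, PYCR1, SLC7A11, YARS1 and LARS1 had none in the table used. The letters TGATGNAA, read on both strands, occurred in 9 of the 31 windows (29%), against 419 of 16038 windows of all measured genes (2.61%). The list was drawn from known ATF4 targets and partners, so that choice bears on this difference, which is no independent test. These 9 stretches are shown because they hold the candidate ATF4 element, in capitals, each 5′ to 3′ in the direction of its gene and with up to 11 bases on either side. Where the letters lie on the other strand they appear as their reverse complement, as in TTGCATCA.
ASNS: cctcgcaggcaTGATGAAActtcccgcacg
CHAC1: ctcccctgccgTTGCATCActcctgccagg
SLC3A2: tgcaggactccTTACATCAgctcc
SLC7A1: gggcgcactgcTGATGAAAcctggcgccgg
AARS1: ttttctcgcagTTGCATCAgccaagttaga
MARS1: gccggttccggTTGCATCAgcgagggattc
NARS1: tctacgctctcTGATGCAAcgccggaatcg
CARS1: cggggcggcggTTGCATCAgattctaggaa
IARS1: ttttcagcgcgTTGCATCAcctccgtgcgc
The capitals in ASNS began 68 bases before the start, at chr7:97872458-97872487 on the minus strand with flanks, and those in CHAC1 209 bases before it, at chr15:40953251-40953280 on the plus strand. Synthetase genes held 5 of the 9, out of 9 synthetase windows (55.6%), and no window of the 7 regulators had the letters. Further ATF4 targets outside the 38 genes had the letters in 5 of 15 windows (33.3%), among them that of the cytosolic synthetase TARS1, which was placed in that list and is named after its values were seen. The 6 windows of the remaining cytosolic synthetases had 0, and 14 of mitochondrial synthetases 1. The same limit of choice holds for the shares of these lists.

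The palindromic cAMP response element TGACGTCA, the textbook site of CREB, was found in 1 of the 31 windows (3.23%), against 411 of 16038 (2.56%). The shorter core TGACG, which also lies inside that palindrome, was found in 13 of 31 windows (41.9%) and in 29.2% of all windows. A match of letters describes the window only and is not a measured site. The 250 bases before the start of ASNS and PPP1R15A are shown as an example of each full element, TGATGNAA in the first and TGACGTCA in the second, which alone are in capitals. Further matches to the short core stand in lower case.
ASNS: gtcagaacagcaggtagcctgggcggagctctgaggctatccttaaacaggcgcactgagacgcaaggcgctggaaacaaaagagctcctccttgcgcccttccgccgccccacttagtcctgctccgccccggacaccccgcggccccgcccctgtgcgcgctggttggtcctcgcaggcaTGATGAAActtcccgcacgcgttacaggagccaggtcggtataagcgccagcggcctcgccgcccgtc
PPP1R15A: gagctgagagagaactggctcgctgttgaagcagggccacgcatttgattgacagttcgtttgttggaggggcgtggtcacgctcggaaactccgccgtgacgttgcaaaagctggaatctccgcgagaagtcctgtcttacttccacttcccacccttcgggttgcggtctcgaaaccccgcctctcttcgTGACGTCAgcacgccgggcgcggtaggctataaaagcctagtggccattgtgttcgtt
These lie at chr7:97872409-97872658 (minus strand) and chr19:48872171-48872420 (plus strand). The ASNS stretch carries TGATGAAA, and the PPP1R15A stretch carries TGACGTCA beginning 58 bases before the start.

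The transfection was visible in CRTC1 itself, which lay between 11.46 and 12.52 on the CRTC1 arrays and between 5.48 and 6.30 on the empty vector arrays, in log2 expression units. Its log2 change was 5.97 (limma adjusted p = 3.11e-05), and it was the 1 gene of 22458 (0.00445%) to pass an adjusted p of 0.05. The colon epithelial markers EPCAM, CDH1, KRT18, KRT19, VIL1 and CDH17 lay between 8.85 and 11.37 on all arrays, with CDX2 from 7.33 to 7.77 and KRT8 from 5.87 to 6.59. Averaged over each list, 4 leukocyte markers stood at 3.84 to 4.13 on CRTC1 arrays and 3.99 to 4.33 on empty vector arrays, 4 endothelial markers at 2.74 to 2.93 and 2.68 to 3.00, and 6 fibroblast markers at 3.04 to 3.17 and 3.05 to 3.09. The median level of all genes was 4.16, and PTPRC, PECAM1 and DCN lay between 1.71 and 3.11. Other markers in these lists reached above that median, with CD68 at 7.19 to 7.61 over the 8 arrays, COL1A1 at 4.68 to 5.17 and LYZ at 3.94 to 4.87. Of these 14 markers 1 was at an unadjusted p under 0.05, the fibroblast marker PDGFRB, at 2.85 to 2.99 on CRTC1 arrays and 2.36 to 2.80 on empty vector arrays. At that level 3.2% of all genes were higher with CRTC1.

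None of the 38 genes passed an adjusted p of 0.05 in limma's moderated test (lowest adjusted p = 0.837). At an unadjusted p under 0.05, 4 were higher with CRTC1, namely DDIT3, ASNS, CTH and SLC7A11, and 0 were lower. That is 10.5% of the list, where 3.2% of all genes were higher at that level and 2.73% lower, and where the share was 2.52% among genes at or above the median level, to which all 38 belong. The log2 change was above 0 for 32 genes and below 0 for 6 (above 0 for 34 with quantile normalization), and 48.6% of all genes had a change above 0. The median log2 change was 0.09 over the list and -0.01 over all genes. The list was chosen with earlier results of these data known, and the count of 4 depended on single arrays. Leaving out CRTC1 replicate 1 gave 0, as did leaving out empty vector replicate 3 or 4. Leaving out empty vector replicate 2 gave 2, CRTC1 replicate 4 gave 8 and empty vector replicate 1 gave 10. With both arrays of a replicate number left out, the count was 7 for replicate 1. It was 1 for replicate 2, 0 for replicate 3 and 2 for replicate 4. Nothing in the labels tells whether the replicates were grown as separate cultures, so the p-values may reflect technical spread alone. In RNA from a whole dish, a gene raised in few transfected cells and one raised slightly in all cannot be told apart.

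**Figure D1:**
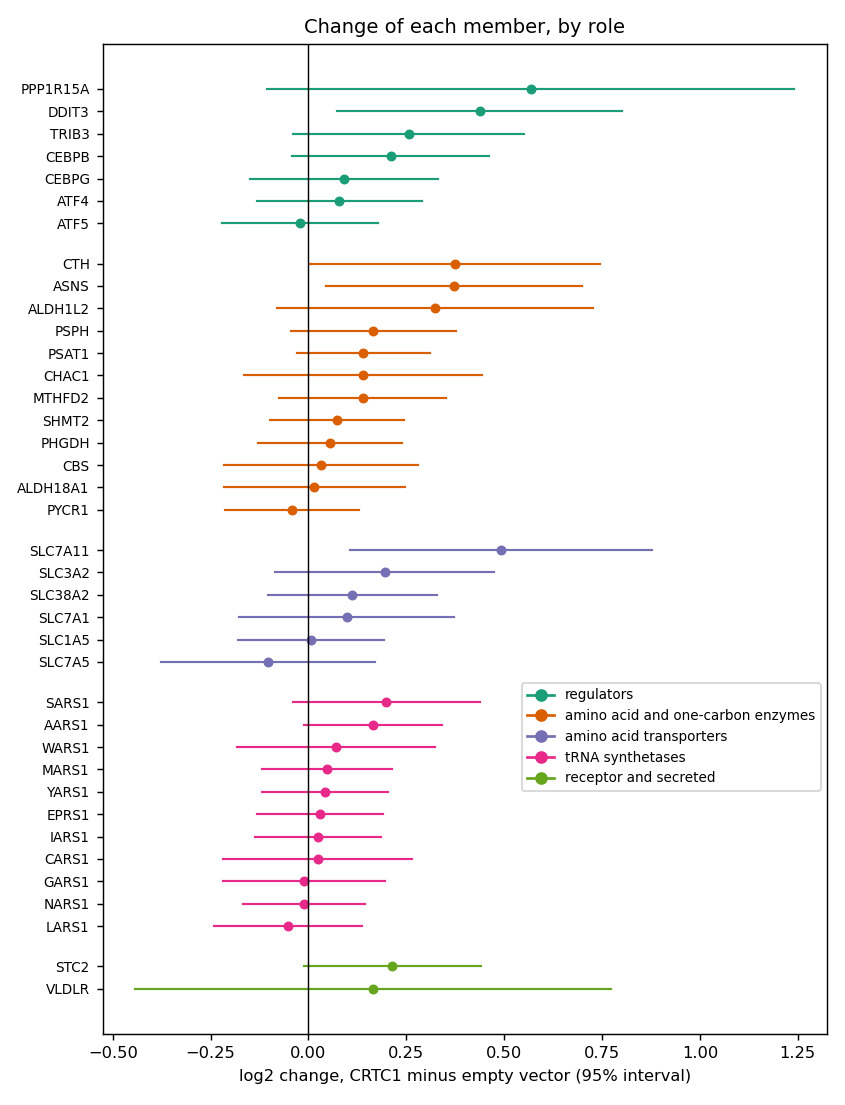
Log2 change of each of the 38 genes, CRTC1 minus empty vector, with the 95% interval from limma (x axis) and genes grouped by role (y axis, colour). The intervals of DDIT3, ASNS, CTH and SLC7A11 lie above 0, and those of the synthetases cluster around it, between -0.05 and 0.20 in their centres.

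Arrays differed among themselves within each group. Replicate 1 gave the highest value of its group for 27 of the 38 genes among the CRTC1 arrays and for 28 of 38 among the empty vector arrays, whereas over all genes replicate 1 was highest for 26.6% and 24.8%. Replicate 4 gave the lowest value for 23 and 17 of the 38. Averaged over the list, the CRTC1 arrays stood at 8.16, 7.97, 7.99 and 7.90 for replicates 1 to 4, and the empty vector arrays at 8.03, 7.86, 7.81 and 7.77. The 2 groups overlapped, since empty vector replicate 1 exceeded CRTC1 replicates 2, 3 and 4. Between arrays of equal number the CRTC1 array was higher by 0.131, 0.104, 0.175 and 0.128 for replicates 1 to 4. The labels state no pairing by that number. CRTC1 replicate 1 was also the array with the highest CRTC1 signal, 12.52, but the high empty vector replicate 1 had a CRTC1 signal of 5.48, the lowest of its group, and the part of either in these results was not tested.

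**Figure D2:**
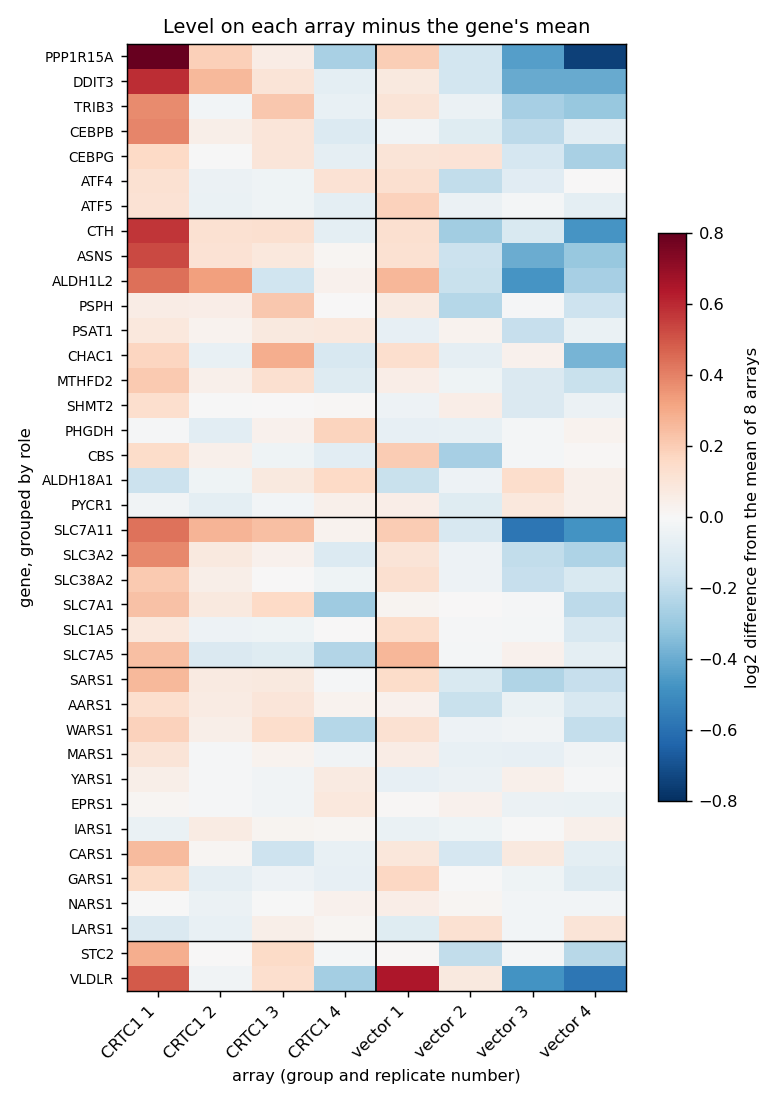
Log2 level of each gene on each array minus that gene's mean over the 8 arrays (colour scale), with CRTC1 arrays left of the line and empty vector arrays right of it, and roles separated by horizontal lines. Both replicate 1 columns are red in most rows, and most synthetase rows are pale.

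Among the regulators, the transcript of ATF4 itself (Entrez Gene 468) lay at 9.98, 9.82, 9.83 and 9.98 with CRTC1, against 9.99, 9.66, 9.77 and 9.86 with empty vector. The groups overlapped along nearly their whole range. The fold was 1.06 with a 95% interval of 0.912 to 1.22 (limma adjusted p = 0.913). ATF5, a bZIP factor related to ATF4, had a log2 change of -0.02, and CEBPG, a dimer partner of ATF4, of 0.09.

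DDIT3, which encodes CHOP, a transcription factor downstream of ATF4, lay at 6.10, 5.77, 5.61 and 5.43 with CRTC1, against 5.59, 5.36, 5.10 and 5.11 with empty vector. CRTC1 replicates 1, 2 and 3 exceeded all empty vector arrays, and CRTC1 replicate 4 lay under empty vector replicate 1. The CRTC1 mean of 5.73 ± 0.285 stood against 5.29 ± 0.232 for empty vector (SD, n = 4 each). The fold was 1.35 (95% interval 1.052 to 1.74, limma p = 0.0236 and adjusted p = 0.837, exact two-sided permutation p = 0.0571).

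PPP1R15A, the phosphatase subunit GADD34 that reverses eIF2 phosphorylation, lay at 7.81, 6.86, 6.73 and 6.41 with CRTC1, against 6.86, 6.52, 6.23 and 5.92 with empty vector. It had the largest log2 change of the 38 genes, 0.57, and also the widest spread among CRTC1 arrays (SD 0.604, n = 4), with an adjusted p of 0.852 in limma. Without CRTC1 replicate 1, and with the high empty vector replicate 1 kept, that change was 0.28. Between arrays of equal number the differences were 0.95, 0.34, 0.50 and 0.48 for replicates 1 to 4. TRIB3, a pseudokinase that holds back ATF4 signalling, lay at 7.39, 7.00, 7.23 and 6.96 with CRTC1, against 7.12, 6.97, 6.75 and 6.71 with empty vector. CEBPB, another partner of ATF4, lay at 6.51, 6.16, 6.21 and 6.01 with CRTC1, against 6.09, 6.02, 5.91 and 6.03 with empty vector. In both genes the groups overlapped, with log2 changes of 0.26 for TRIB3 and 0.21 for CEBPB (limma adjusted p = 0.851 and 0.853). Of the 7 regulators 6 had a change above 0, 1 at an unadjusted p under 0.05 (14.3%), and their median was 0.21. Over all genes 48.6% had a change above 0 and 3.2% were higher at that level.

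The 12 enzymes had a median log2 change of 0.14, with 11 above 0 and 2 at an unadjusted p under 0.05 (16.7%). The shares over all genes were 48.6% above 0 and 3.2% higher at that level. ASNS, which makes asparagine from aspartate and whose window is printed above, lay at 9.32, 8.91, 8.88 and 8.81 with CRTC1, against 8.91, 8.62, 8.40 and 8.49 with empty vector. CRTC1 replicate 1 stood above all other arrays, and CRTC1 replicates 2, 3 and 4 lay close to empty vector replicate 1 and above the other empty vector arrays. The fold was 1.29 (95% interval 1.03 to 1.62, limma p = 0.0299, adjusted p = 0.837, exact permutation p = 0.114).

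CTH, which releases cysteine from cystathionine, lay at 5.38, 4.93, 4.93 and 4.72 with CRTC1, against 4.93, 4.52, 4.68 and 4.33 with empty vector. Empty vector replicate 1 was level with CRTC1 replicates 2 and 3, and CRTC1 replicate 4 lay below it. The log2 change was 0.37 with a 95% interval whose lower end, 0.0034, lay just above 0 (limma p = 0.0483, adjusted p = 0.838, exact permutation p = 0.114). CBS, the enzyme before CTH in the same route, had a log2 change of 0.03, and since a near-identical copy of CBS exists in the reference genome its own level is uncertain.

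The serine route begins with PHGDH, which had a log2 change of 0.06. PSAT1, its second enzyme, lay at 8.527, 8.473, 8.522 and 8.528 with CRTC1, against 8.375, 8.468, 8.261 and 8.387 with empty vector. It was the 1 gene of the 38 whose CRTC1 arrays all lay above all empty vector arrays (exact permutation p = 0.0286, the smallest that 4 against 4 arrays allow), a pattern seen in 1.68% of all genes. The margin was 8.473 against 8.468, the log2 change 0.14 and limma's adjusted p 0.855. PSPH, the third enzyme, lay at 7.32, 7.32, 7.48 and 7.27 with CRTC1, against 7.33, 7.04, 7.25 and 7.10 with empty vector, so that empty vector replicate 1 reached into the CRTC1 range.

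Serine from this route can supply one-carbon units to the mitochondrial one-carbon enzymes. ALDH1L2, which oxidises formyl-tetrahydrofolate, lay at 4.90, 4.79, 4.30 and 4.49 with CRTC1, against 4.73, 4.28, 3.99 and 4.20 with empty vector. Its log2 change of 0.32 lay within a wide interval of -0.08 to 0.73. MTHFD2, a methylene-tetrahydrofolate dehydrogenase, lay at 9.40, 9.23, 9.32 and 9.08 with CRTC1, against 9.24, 9.15, 9.07 and 9.01 with empty vector. SHMT2, which splits serine into glycine and a one-carbon unit, lay at 9.16, 9.03, 9.03 and 9.04 with CRTC1, against 8.99, 9.08, 8.92 and 8.98 with empty vector. For all of these the groups overlapped, and the log2 changes were 0.14 for MTHFD2 and 0.07 for SHMT2. CHAC1, which breaks down glutathione, lay at 5.25, 5.02, 5.37 and 4.95 with CRTC1, against 5.21, 5.00, 5.11 and 4.71 with empty vector. Its log2 change was 0.14 (limma adjusted p = 0.889). The proline enzymes ALDH18A1 and PYCR1 had changes of 0.02 and -0.04.

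**Figure D3:**
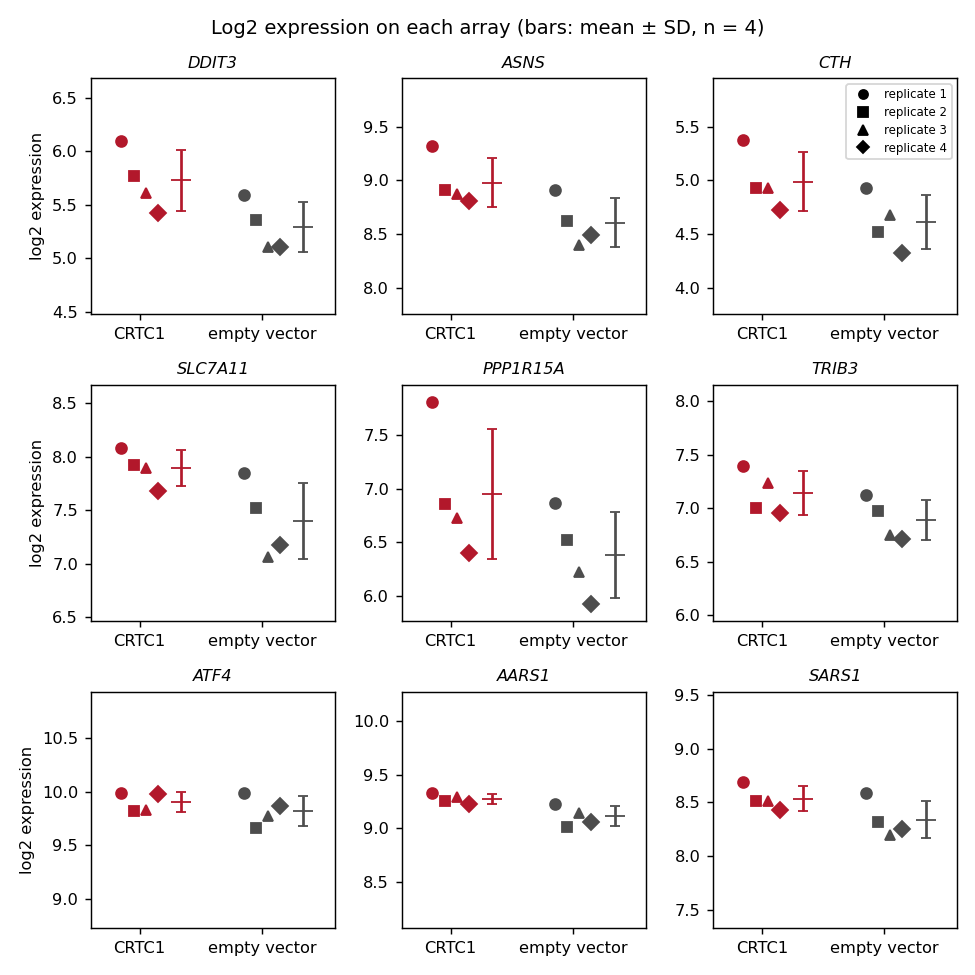
Log2 expression (y axis, the same span in each panel) on each of the 4 CRTC1 and 4 empty vector arrays for 9 genes, with symbols for replicate numbers and bars for mean ± SD. DDIT3, ASNS, CTH and SLC7A11 sit higher with CRTC1 apart from an overlap with empty vector replicate 1, while ATF4 overlaps fully.

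Of the 6 transporters, SLC7A11 stood out. It exchanges glutamate for cystine, and it lay at 8.08, 7.92, 7.89 and 7.68 with CRTC1, against 7.85, 7.52, 7.07 and 7.17 with empty vector. CRTC1 replicate 4 lay below empty vector replicate 1, and the other CRTC1 arrays exceeded all empty vector arrays. The CRTC1 mean of 7.89 ± 0.167 stood against 7.40 ± 0.355 for empty vector (SD, n = 4 each), a fold of 1.41 (95% interval 1.08 to 1.84, limma p = 0.0176, adjusted p = 0.837, exact permutation p = 0.0571).

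SLC3A2, the heavy chain that carries SLC7A11 and SLC7A5 to the cell surface, lay at 10.48, 10.18, 10.13 and 9.99 with CRTC1, against 10.20, 10.05, 9.90 and 9.85 with empty vector. Its log2 change was 0.19 (limma adjusted p = 0.864). SLC7A5, the light chain for large neutral amino acids such as leucine, differed in sign from its partner, at -0.10 with an interval of -0.38 to 0.17. SLC38A2, a sodium-coupled carrier of small neutral amino acids, lay at 11.08, 10.91, 10.87 and 10.83 with CRTC1, against 10.99, 10.83, 10.68 and 10.74 with empty vector. The groups overlapped and its change was 0.11. The arginine and lysine carrier SLC7A1 had 0.10 and the glutamine carrier SLC1A5 0.01.

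The 11 tRNA synthetases, each of which joins an amino acid to its tRNA, differed least. Their log2 changes ran from -0.05 (LARS1) to 0.20 (SARS1), with a median of 0.03, 8 above 0 and 0 at an unadjusted p under 0.05. Of all genes 48.6% were above 0. AARS1, for alanine, lay at 9.33, 9.26, 9.29 and 9.22 with CRTC1, against 9.23, 9.01, 9.14 and 9.06 with empty vector. The groups met at CRTC1 replicate 4 (9.224) and empty vector replicate 1 (9.226), and the fold was 1.12 (95% interval 0.992 to 1.27, limma adjusted p = 0.838). SARS1, for serine, lay at 8.69, 8.51, 8.51 and 8.43 with CRTC1, against 8.59, 8.31, 8.20 and 8.25 with empty vector. Its fold of 1.15 had the highest upper limit of the 11 genes, 1.35, and the lowest lower limit was that of LARS1, 0.846. The remaining synthetase genes WARS1, MARS1, YARS1, EPRS1, IARS1, CARS1, GARS1 and NARS1 had changes between -0.01 and 0.07. The genes with a TGATGNAA window had a median log2 change of 0.10 (n = 9) and those with a window lacking it also 0.10 (n = 22). Of those 9 genes 5 were synthetases, so these medians cannot separate the element from the role. Elements outside the windows were not looked for, and any link between element and change was not tested.

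STC2, a secreted glycoprotein, lay at 8.39, 8.10, 8.25 and 8.09 with CRTC1, against 8.11, 7.90, 8.08 and 7.88 with empty vector. Its log2 change was 0.21 (limma adjusted p = 0.838). VLDLR, a lipoprotein receptor, lay at 4.92, 4.40, 4.57 and 4.16 with CRTC1, against 5.08, 4.50, 3.95 and 3.85 with empty vector. Replicate 1 was the highest array in both groups, and the change of 0.16 rested on single arrays. Leaving out CRTC1 replicate 1 gave 0.03 and CRTC1 replicate 4 gave 0.28. Leaving out empty vector replicate 1 gave 0.41, replicate 3 gave 0.03 and replicate 4 a value close to 0.

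**Figure D4:**
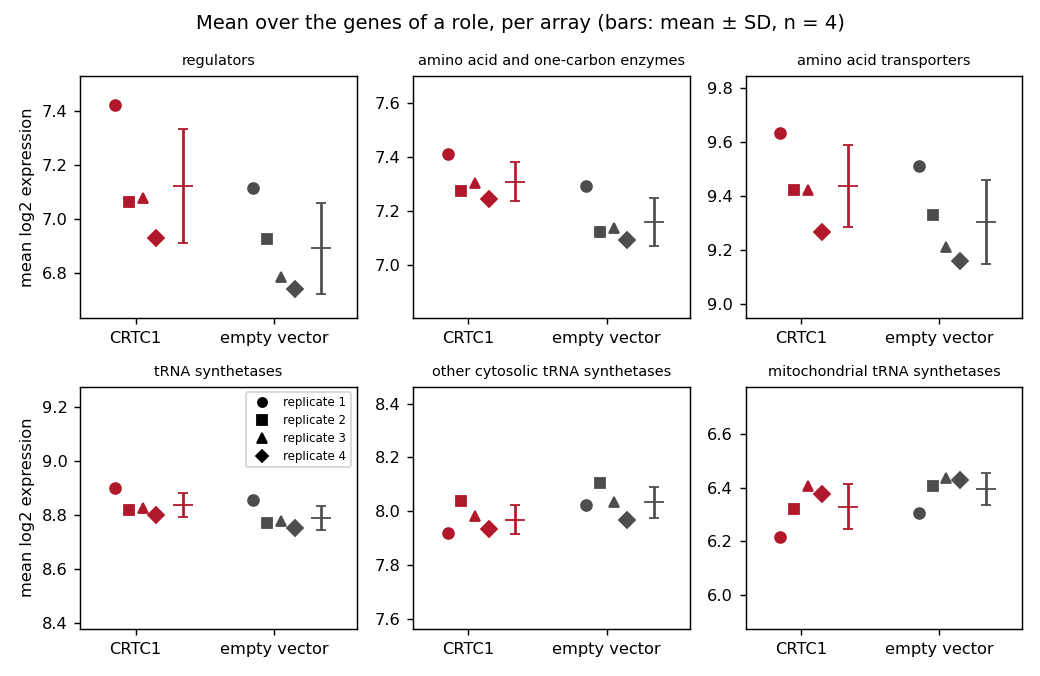
Mean log2 expression over the genes of a role on each array (y axis, the same span in each panel), for the CRTC1 and empty vector groups, with bars for mean ± SD over 4 arrays. Regulators average 7.12 with CRTC1 and 6.89 with empty vector, listed synthetases 8.84 and 8.79, and the groups overlap in every panel.

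Synthetases outside the 38 genes were measured alongside. Of 8 other cytosolic synthetase genes 2 had a log2 change above 0 and 6 below, with a median of -0.07, and of 16 mitochondrial ones 2 were above and 14 below, with a median of -0.05, where 48.6% of all genes were above. TARS1, counted with the further ATF4 targets and not among these 8, had 0.04. FARSA, the alpha subunit for phenylalanine, lay at 8.68, 8.79, 8.83 and 8.83 with CRTC1, against 8.94, 8.99, 8.95 and 8.86 with empty vector. All 4 CRTC1 arrays lay below all 4 empty vector arrays in FARSA, VARS1 and RARS1, a pattern found in 2.06% of all genes. Their log2 changes were small, at -0.15, -0.14 and -0.08, and limma's adjusted p was 0.838, 0.854 and 0.882. CARS2, the mitochondrial cysteine enzyme, had -0.22 and was the 1 mitochondrial synthetase at an unadjusted p under 0.05 (limma p = 0.025, adjusted p = 0.837, exact permutation p = 0.0571), followed by MARS2 at -0.16 and VARS2 at -0.14. At that unadjusted level 2.73% of all genes were lower. AIMP1, a scaffold of the synthetase complex, had 0.03. Whether the listed synthetases differ from the others was not tested.

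Upstream of ATF4, 15 genes of the eIF2 kinases and the eIF2 cycle had a median log2 change of -0.01 with 0 at an unadjusted p under 0.05. PPP1R15B, the constitutive counterpart of PPP1R15A, had 0.20, and the exchange factor subunits EIF2B3 and EIF2B1 had -0.14 and -0.12. The 4 kinases, named after their values were seen, had -0.04 (EIF2AK1, heme-regulated), 0.04 (EIF2AK2, activated by double-stranded RNA), 0.21 (EIF2AK3, of the endoplasmic reticulum) and -0.11 (EIF2AK4, activated by uncharged tRNA). Further ATF4 targets numbered 17, in a list chosen with earlier results of these data known. Their median was 0.07, with 3 higher at an unadjusted p under 0.05 (17.6%, against 3.2% of all genes). These were DDIT4 (0.79), HERPUD1 (0.76) and SESN2, an inhibitor of mTORC1 signalling, each with an adjusted p of 0.837 in limma. All 4 CRTC1 arrays lay above all 4 empty vector arrays in DDIT4 (exact permutation p = 0.0286), a pattern seen in 1.68% of all genes. In HERPUD1, CRTC1 replicate 4 (7.92) lay below empty vector replicate 1 (8.10). SESN2 lay at 5.72, 5.14, 5.47 and 4.98 with CRTC1, against 5.16, 4.68, 4.80 and 4.56 with empty vector, and CRTC1 replicates 2 and 4 lay below empty vector replicate 1.

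**Figure D5:**
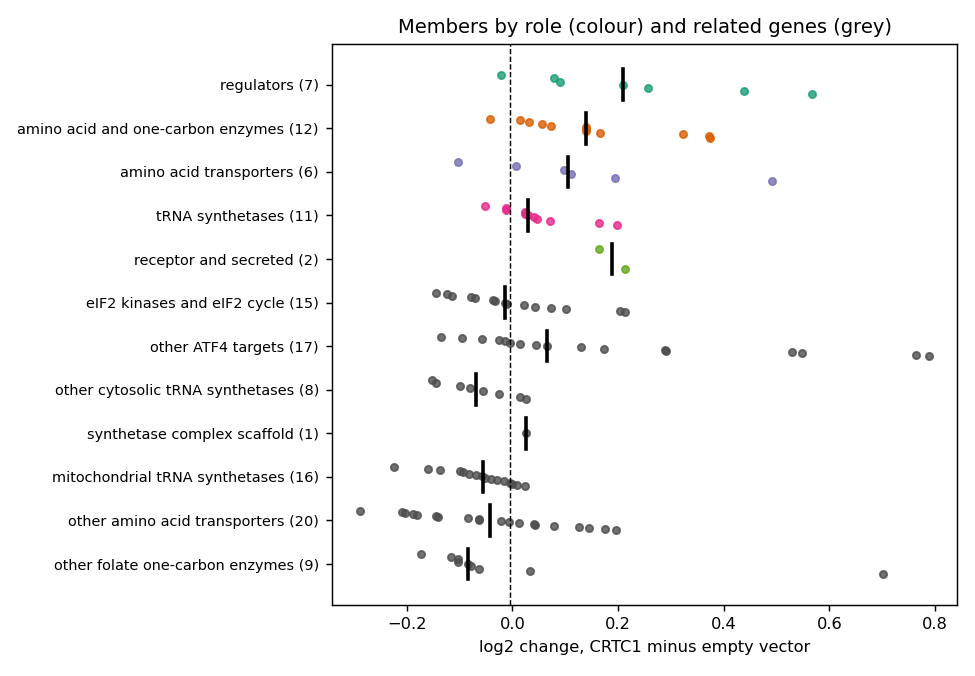
Log2 change, CRTC1 minus empty vector (x axis), of the 38 genes by role (coloured points) and of related genes (grey points), with the number of genes measured in brackets, list medians as black bars and the median of all genes as a dashed line. The medians of regulators (0.21), enzymes (0.14) and transporters (0.10) lie right of the dashed line, and those of the other synthetases (-0.07) and mitochondrial synthetases (-0.05) left of it.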

How the data were processed

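Labelled total RNA of 8 samples was hybridised to Affymetrix arrays with the whole-transcript sense target assay, per the labels' protocols. The authors deposited log2 expression values for 23786 probe sets, a scale judged from their range. The submitters' processing notes name Partek, with neither role nor version. How background and normalization were handled is unknown here. Array medians ran from 4.11 to 4.15, and scaling of that kind hides any shift that most genes share.

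Platform symbols were updated by Entrez identifier with RefSeq (GRCh38.p14). Of the probe sets 22458 had 1 symbol and 1328 were unnamed here. The 2 groups were fitted in limma 3.58.1 (R 4.3.3), with the empty vector mean as intercept and 1 coefficient for CRTC1 minus empty vector. Empirical Bayes moderation and Benjamini-Hochberg adjustment over 22458 genes followed. Exact two-sided permutation over the arrays was added for single genes. The number of arrays limits the precision. Recovery of known changes was tested on simulated data. The genes and lists were chosen with earlier results of these data known. Array values are given for 20 of the 38 genes: ATF4, ASNS, and those with the smallest p, with at least 2 from each role. Up to 3 genes with the smallest p are named from every other list. Of the genes in those lists, those with no probe set named here were not analysed. Alternatives covered a replicate block, normalization, centring, dim genes, variance model, array weights, all probe sets and arrays left out.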

Additional observations from a re-analysis of the deposited data

Results flagged for a closer look

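Dixon's test was run on 78 groups of 4 arrays, both groups of the 38 genes and CRTC1. It marked an array far from the other 3 in 4 groups, where about 3.9 arise by chance. In PSAT1, CRTC1 replicate 2 had 8.473 and the rest of its group 8.522 to 8.528. In SHMT2, CRTC1 replicate 1 had 9.16 and the rest 9.03 to 9.04. In GARS1 the same array had 9.30 and the rest 9.08 to 9.11. In SLC7A1, empty vector replicate 4 had 8.23 and the rest of the empty vector group 8.43 to 8.46.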

How the results depend on the processing

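The number of the 38 genes at an unadjusted p under 0.05 was 4 and ran from 0 to 10 with an array or replicate number left out, was 6 with quantile normalization and among genes at or above the median level, and was 9 with a variance trend and robust moderation, where genes past the adjusted threshold numbered 2, CRTC1 included. It stayed at 4 with median centring, array weights and all probe sets. None of the 38 passed an adjusted p of 0.05 in the 19 alternatives. Genes at an unadjusted p under 0.05 numbered 1333, 829 when the 11229 brighter genes alone were tested, and 1062 to 1485 with arrays left out. The list's median log2 change ran from 0.0562 without CRTC1 replicate 1 to 0.138 without CRTC1 replicate 4. Why these counts moved was not tested. For 40 named genes, 754 of 758 alternative values had the same direction and the same side of an adjusted p of 0.05. The other 4, close to 0, had the other direction, 3 in AIMP1 and 1 in VLDLR. All named genes but CRTC1 had an adjusted p of at least 0.837 in limma, so that side had little room to change.

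Samples with equal replicate numbers share only a number in the labels. Their deviations from the group means correlated at 0.25, 0.04, 0.06 and 0.12 across all genes for replicates 1 to 4. Across all genes each array correlated best with the array of its own number, a hint from the data and not from the design. Over the 38 genes alone the values were 0.77, -0.09, 0.38 and 0.83, and not every array correlated best with its own number. With the replicate block the count among the 38 was 10, all higher, where 4.21% of all genes were higher at that level, and 1 gene, CRTC1, passed the adjusted threshold.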

Other observations

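Among genes next to the list in the same pathways, 20 amino acid transporters outside it had a median log2 change of -0.04. At an unadjusted p under 0.05, 1 of the 20 was higher (5%) and 1 lower, where 3.2% of all genes were higher and 2.73% lower. SLC36A1, a proton-coupled amino acid carrier, had -0.21 (limma p = 0.0357, adjusted p = 0.837, exact permutation p = 0.0571). SLC38A9, a lysosomal arginine sensor of mTORC1, had 0.18 (limma p = 0.0496, adjusted p = 0.838, exact permutation p = 0.0286). Its 4 CRTC1 arrays lay above all 4 empty vector arrays, a pattern seen in 1.68% of all genes. SLC6A19, the neutral amino acid carrier of the intestinal brush border, had -0.20.

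Of 9 further folate enzymes 7 had a log2 change below 0 and 2 above, with a median of -0.08. Over all genes 48.6% had a change above 0. TYMS, which makes thymidylate, had -0.08 and GLDC of the glycine cleavage system -0.10. MTHFD2L, a relative of MTHFD2, lay at 3.13, 2.70, 3.88 and 4.32 with CRTC1, against 2.71, 3.02, 2.68 and 2.80 with empty vector. Its log2 change of 0.70 (limma p = 0.047, adjusted p = 0.837, exact permutation p = 0.114) rested on CRTC1 replicates 3 and 4, and 7 of its 8 values lay under the median level of all genes, 4.16. MTHFD2L was the 1 gene of the 9 at an unadjusted p under 0.05 (11.1%), where 3.2% of all genes were higher.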
